A study of Rattus norvegicus with 18 samples.

Results

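The 4 miRNAs described here are the arms of the miR-455 and miR-140 precursors, namely rno-miR-455-5p, rno-miR-455-3p, rno-miR-140-5p and rno-miR-140-3p, out of 753 miRNAs listed. They were measured by small RNA sequencing of the dorsal root ganglia (DRG) of cervical levels 6 to 8, which hold the cell bodies of sensory neurons of the forelimb, in 18 adult Lister hooded rats. The members were taken by name. The set was chosen by values of miR-455-3p in an earlier look at these data, where it had the smallest p-value in bPYX+NT3 against bPYX+GFP and was higher after injury. The differences of miR-455-3p are therefore given as a description, without a p-value.

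Naive rats had no surgery and no treatment. In the other groups both corticospinal tracts were cut in the medullary pyramids (bPYX), and on the next day the forelimb flexor muscles of one side were injected with an adeno-associated viral vector of serotype AAV1. The vector carried either GFP (bPYX+GFP) or human prepro-neurotrophin-3 (bPYX+NT3), each driven by the CMV promoter, which is not restricted to a cell type. Each library held the RNA of 1 rat, in the injured groups from cervical ganglia on the injected side at week 10 after injury, and there were 6 rats in each group. Since naive rats had neither injury, surgery nor vector, these cannot be told apart where bPYX+GFP is set against naive.

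A miRNA gene is transcribed as a hairpin, and the mature strands from its 5′ and 3′ sides are called the 5p and 3p arms. One strand is usually loaded into the silencing complex more often than its partner, and it pairs with messenger RNAs mainly through its seed, bases 2 to 8. miR-140 and miR-455 are best known from cartilage, where SOX9, the main transcription factor of chondrocytes, is known to act on the genes that host them. In the RefSeq annotation of GRCr8, Mir140 lies within Wwp2, which encodes a ubiquitin ligase, and Mir455 lies within Col27a1, which encodes a fibrillar collagen of cartilage. SOX9 is not restricted to cartilage and is also made by glial cells of the nervous system.

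Mature sequences in RefSeq (GRCr8) matched 3 of the 4 members, and they are shown because the arms of each precursor are compared with each other below. Seeds are in capitals.
miR-455-3p: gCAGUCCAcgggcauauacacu
miR-140-5p: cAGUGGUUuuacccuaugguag
miR-140-3p: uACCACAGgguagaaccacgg
miR-455-5p was matched by name to no mature entry. The 3 seeds differ from each other, and each was shared with 0 other rat miRNAs of that table. The hairpins are shown with the listed mature sequences in capitals, which are both arms of Mir140 and the 3p arm of Mir455.
Mir455: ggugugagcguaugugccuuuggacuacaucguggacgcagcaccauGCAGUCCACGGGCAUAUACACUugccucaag
Mir140: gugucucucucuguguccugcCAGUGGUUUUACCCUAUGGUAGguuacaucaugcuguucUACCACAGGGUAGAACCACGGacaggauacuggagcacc

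Libraries held 4.70 ± 0.66 M counts of miRNAs (SD, n = 18, with M for mega), from 3.88 to 6.92 M. bPYX+GFP replicate 3, at 6.92 M, stood apart from the other libraries of its group, which held 4.37 to 4.66 M. The study left out an outlying rat, which the sample labels do not identify, so every library was kept here. All 4 members passed the detection filter of more than 10 counts in at least 6 libraries, and 373 miRNAs passed it in all. The lowest count of any member in any library was 621, for miR-455-3p, at which counting error alone gives a coefficient of variation of 4.0%.

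miR-140-3p was the most abundant member, followed by miR-140-5p, miR-455-5p and miR-455-3p, and this order held in all 18 libraries. Levels are counts per M of miRNA counts after TMM scaling (CPM), and a level compares how many reads each sequence gave, not how many molecules it had. Over all rats rno-miR-140-3p averaged 3049 ± 428 CPM (SD, n = 18), which placed it at rank 31 of 373 tested miRNAs, between miR-23b-3p at 3223 CPM and miR-485-5p at 2727 CPM. rno-miR-140-5p averaged 754 ± 94.5 CPM, at rank 74. rno-miR-455-5p averaged 428 ± 86.4 CPM, at rank 100, and rno-miR-455-3p averaged 187 ± 24.9 CPM, at rank 128. The ranges of the 4 members over the 18 libraries did not overlap. The lowest miR-140-5p library had 652 CPM and the highest miR-455-5p library had 632 CPM, so the gap between these neighbours was the narrowest.

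Within groups the SD on the log2 scale was 0.18 for miR-140-5p, 0.21 for miR-140-3p and 0.25 for miR-455-5p, against a median of 0.22 over the 373 miRNAs. For miR-455-3p it was 0.15, but a choice by a small p-value favours a low spread, so nothing is read from it. The coefficient of variation of miR-455-5p was 14.1% in naive rats, 15.7% in bPYX+GFP rats and 21.5% in bPYX+NT3 rats.

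**Figure D1:**
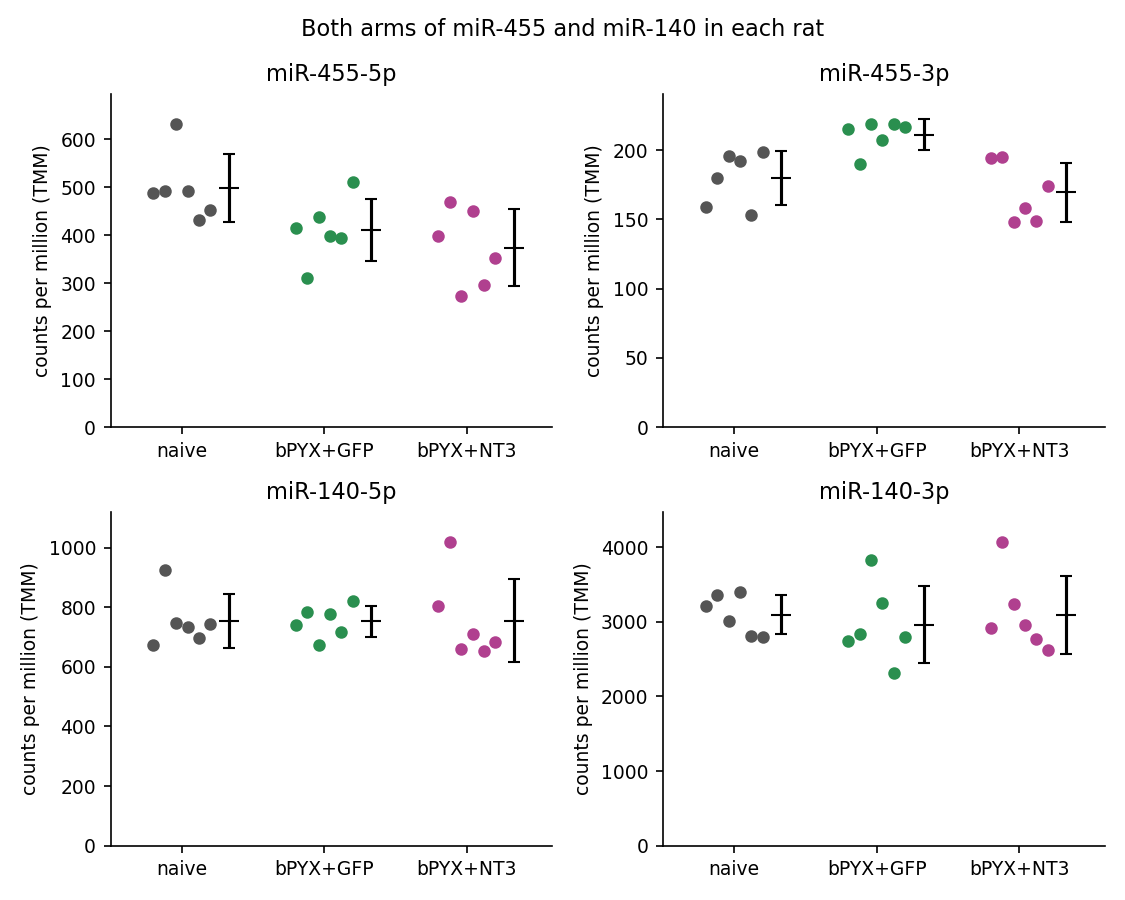
Level of each member (vertical axes from 0, CPM after TMM scaling) in the 6 rats of each group, with 1 point per rat in the order of the replicate numbers and the mean ± SD to the right of the points. miR-455-5p averaged 498, 411 and 374 CPM in naive, bPYX+GFP and bPYX+NT3 rats, miR-455-3p was highest in bPYX+GFP rats at 211 CPM, and the means of each miR-140 arm lay close together.

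miR-455-5p, the more abundant arm of its precursor, was lower on average in both injured groups than in naive rats, but neither difference passed the adjusted test. Naive libraries had from 431 to 632 CPM, with a median of 490.0 CPM. bPYX+GFP libraries had from 311 to 510.0 CPM, with a median of 407 CPM, and bPYX+NT3 libraries from 274 to 470.1 CPM, with a median of 376 CPM. The groups overlapped, although 4 of the 6 libraries in each injured group lay below the lowest naive library.

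In bPYX+GFP against naive rats, the comparison that asked what differed after injury, miR-455-5p had a log2 fold change of -0.28 ± 0.11 (SE; edgeR quasi-likelihood test, unadjusted p = 0.0255, adjusted p = 0.19), with 5 of 6 bPYX+GFP libraries below the naive mean. Of miR-455-5p, miR-140-5p and miR-140-3p it alone met the criterion used by the study, an unadjusted p under 0.05. That criterion was met by 21.2% of the 373 miRNAs (10.5% lower and 10.7% higher), and an adjusted p under 0.05 by 2.41% (1.34% lower and 1.07% higher). Non-overlapping levels were found for 4.02% of the miRNAs, and the groups overlapped for each of the 4 members. Without naive replicate 3, the highest library, the log2 fold change was -0.20 (edgeR adjusted p = 0.327). By the adjusted criterion 0 of these 3 members passed, also with the likelihood ratio test of edgeR and with DESeq2.

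In bPYX+NT3 against naive rats, which asked what still differed from uninjured animals, miR-455-5p had a log2 fold change of -0.41 ± 0.14 (edgeR unadjusted p = 0.00786, adjusted p = 0.191), with 6 of 6 bPYX+NT3 libraries below the naive mean. It was again the only one of the 3 with an unadjusted p under 0.05, where 13.7% of the miRNAs met that criterion (6.43% lower and 7.24% higher). Non-overlapping levels were found for 1.34% of the miRNAs, none of them a member. No miRNA of the 373 had an edgeR adjusted p under 0.05 here, and the likelihood ratio test and DESeq2 each gave 1. The log2 fold change was -0.33 without naive replicate 3 and -0.34 without bPYX+NT3 replicate 3, the library of the lowest miR-455-5p level. Leaving out naive replicate 1 gave -0.42 here and -0.28 for bPYX+GFP against naive.

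Between the injured groups, which asked what differed with neurotrophin-3, miR-455-5p was not distinguishable. The log2 fold change of bPYX+NT3 against bPYX+GFP was -0.12 ± 0.14, with a 95% interval from -0.41 to 0.16 (edgeR adjusted p = 0.819). Of the 373 miRNAs, 8.58% had an unadjusted p under 0.05 in this comparison (5.09% higher and 3.49% lower), and 0 had an adjusted p under 0.05 by edgeR's quasi-likelihood test. Without single libraries the value was from -0.22 (without bPYX+NT3 replicate 2) to -0.07 (without bPYX+NT3 replicate 5). It was -0.19 without bPYX+NT3 replicate 4, -0.18 without bPYX+GFP replicate 2, and -0.08 without either bPYX+NT3 replicate 3 or bPYX+GFP replicate 6. Among miR-455-5p and the arms of miR-140, 0 had an unadjusted p under 0.05.

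miR-455-3p had its highest mean in bPYX+GFP rats. Naive libraries had from 153 to 199 CPM, with a median of 186 CPM. bPYX+GFP libraries had from 190.2 to 219 CPM, with a median of 216 CPM, and 5 of the 6 lay above the highest naive library. bPYX+NT3 libraries had from 148 to 195 CPM, with a median of 166 CPM, and 4 of the 6 lay below the lowest bPYX+GFP library. The naive and bPYX+NT3 ranges overlapped over most of their width.

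These levels correspond to a log2 fold change of miR-455-3p of 0.23 ± 0.08 (SE) in bPYX+GFP against naive rats, a fold of 1.18. For bPYX+NT3 against bPYX+GFP rats the value was -0.31 ± 0.09, a fold of 0.81, and for bPYX+NT3 against naive rats it was -0.08 ± 0.10. The first and second of these comparisons share the bPYX+GFP libraries. Leaving out single libraries gave values from 0.20 to 0.27, from -0.37 to -0.27 and from -0.11 to -0.0352, respectively. Without bPYX+GFP replicate 3, the largest library, the first was 0.23 and the second -0.31. Scaled by library size only, the third was -0.0144. Since these contrasts chose the members, nothing is read from their size.

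**Figure D2:**
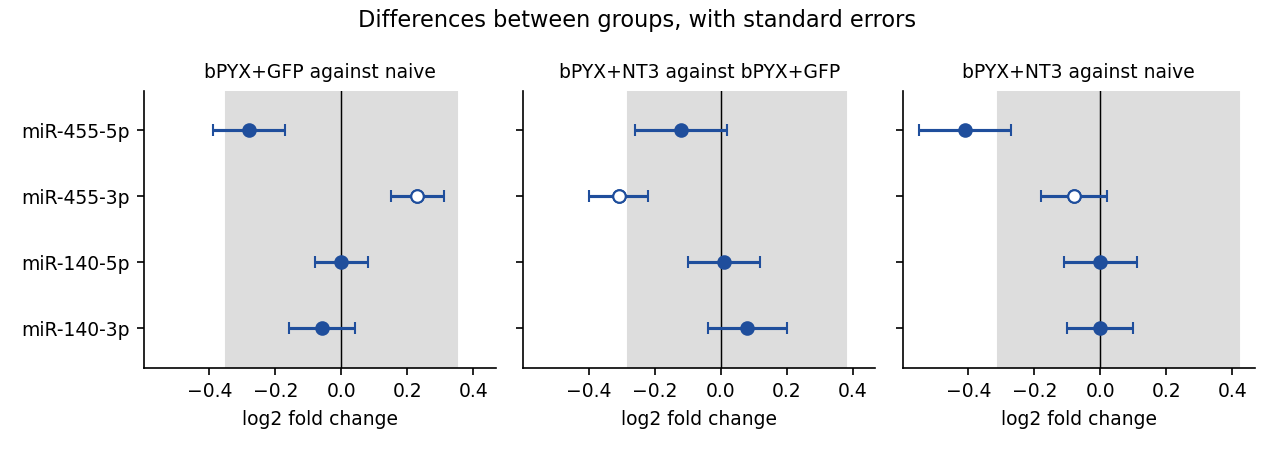
Log2 fold change of each member (horizontal axis) in the 3 comparisons, with points for the edgeR estimate and bars for ± 1 SE; the grey band spans the 5th to the 95th percentile of all 373 tested miRNAs. The miR-455-5p estimate lay below the band in bPYX+NT3 against naive rats (-0.41), and the miR-140 estimates were near 0 throughout. Open points mark miR-455-3p, whose values chose the set and are not to be read against the band.

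The 3p arm of miR-455 made up more of the reads of its precursor in the injured groups. As 3p reads per 5p read, a ratio that needs no scaling between libraries, the mean was 0.364 ± 0.047 for naive rats, 0.522 ± 0.061 for bPYX+GFP rats and 0.465 ± 0.070 for bPYX+NT3 rats (SD, n = 6 per group). Naive rats ranged from 0.309 to 0.440, bPYX+GFP rats from 0.426 to 0.611 and bPYX+NT3 rats from 0.350 to 0.539. All bPYX+GFP rats lay above the naive mean, and 5 of the 6 lay above every naive rat. Of the bPYX+NT3 rats, 5 lay above the naive mean and 4 above every naive rat. The 5p arm gave more reads than the 3p arm in all 18 libraries.

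**Figure D3:**
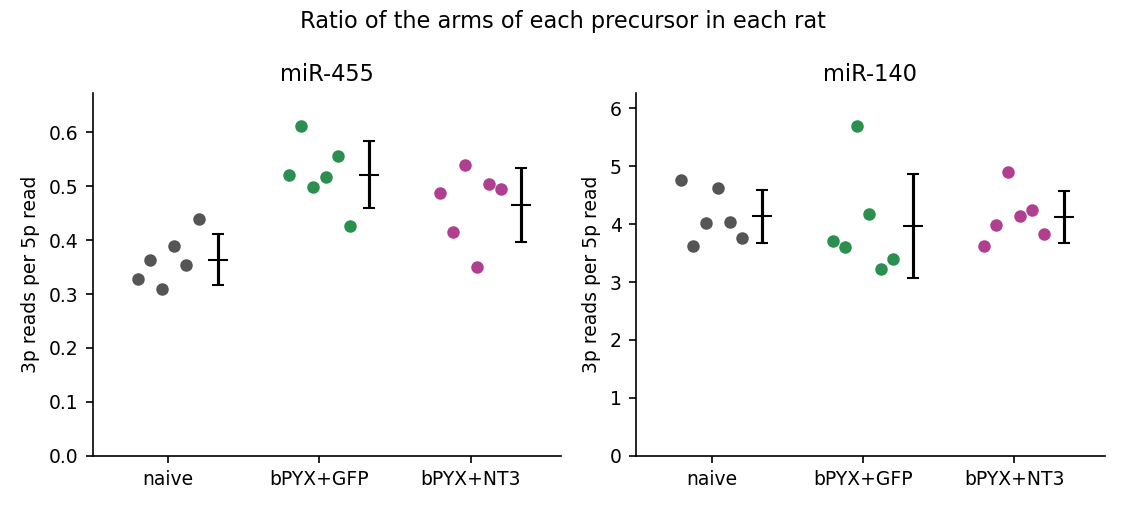
Reads of the 3p arm per read of the 5p arm (vertical axes from 0) for miR-455 and miR-140 in the 6 rats of each group, with 1 point per rat and the mean ± SD to the right. For miR-455, 5 of 6 bPYX+GFP rats lay above every naive rat; for miR-140 the groups overlapped and bPYX+GFP replicate 3 was the highest at 5.69.

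The log2 ratio of the miR-455 arms differed by 0.52 ± 0.10 (SE) between bPYX+GFP and naive rats, by 0.35 ± 0.12 between bPYX+NT3 and naive rats and by -0.17 ± 0.12 between bPYX+NT3 and bPYX+GFP rats. These values contain the 3p counts that chose the members and are given without a test. By size they ranked 11, 30 and 50, in this order, among the 114 precursors with both arms tested. The median absolute differences of those precursors were 0.20, 0.21 and 0.14, so shifts of the arm ratio were not particular to miR-455. The arm ratios of bPYX+GFP and naive rats did not overlap for 5.26% of the 114 precursors with both arms tested. Those of miR-455 overlapped, as naive replicate 6 at 0.440 exceeded bPYX+GFP replicate 6 at 0.426.

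The sum of the miR-455 arms was 678 ± 81.3 CPM for naive rats, 623 ± 73.8 CPM for bPYX+GFP rats and 544 ± 96.3 CPM for bPYX+NT3 rats (SD, n = 6 per group). The order of these sums followed that of the 5p arm, which gave most of the reads. The ranges overlapped, from 584 to 828 CPM in naive rats, from 502 to 727 CPM in bPYX+GFP rats and from 422 to 665 CPM in bPYX+NT3 rats.

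No difference between groups was detected for either arm of miR-140. miR-140-5p had medians of 739, 758 and 698 CPM in naive, bPYX+GFP and bPYX+NT3 rats. Its naive libraries ranged from 673 to 926 CPM, its bPYX+GFP libraries from 674 to 822 CPM and its bPYX+NT3 libraries from 652 to 1018 CPM. Each group's range overlapped the others, its means were 754, 752 and 755 CPM, and its coefficients of variation were 11.8%, 7.1% and 18.6%. The 95% interval of its log2 fold change was -0.17 to 0.16 in bPYX+GFP against naive rats (edgeR adjusted p = 0.989), -0.22 to 0.25 in bPYX+NT3 against bPYX+GFP rats (edgeR adjusted p = 0.976) and -0.24 to 0.24 in bPYX+NT3 against naive rats (edgeR adjusted p = 0.992).

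miR-140-3p had medians of 3106, 2814 and 2934 CPM in the same order of groups. Naive libraries ranged from 2793 to 3394 CPM, bPYX+GFP libraries from 2312 to 3831 CPM and bPYX+NT3 libraries from 2623 to 4063 CPM. The naive range lay inside that of bPYX+GFP. The 95% interval of its log2 fold change was -0.28 to 0.15 in bPYX+GFP against naive rats (edgeR adjusted p = 0.793), -0.18 to 0.34 in bPYX+NT3 against bPYX+GFP rats (edgeR adjusted p = 0.869) and -0.22 to 0.22 in bPYX+NT3 against naive rats (edgeR adjusted p = 0.992).

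The highest miR-140 levels came from single rats. bPYX+NT3 replicate 2 had the highest level of both arms among all 18 libraries, 1018 and 4063 CPM. The estimate in bPYX+NT3 against bPYX+GFP rats was 0.01 for miR-140-5p and 0.08 for miR-140-3p with this library, and -0.11 and -0.0303 without it. bPYX+GFP replicate 3 had the next highest miR-140-3p level, 3831 CPM, while its miR-140-5p level, 674 CPM, was the lowest of its group.

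The 3p arm of miR-140 gave more reads than the 5p arm in all 18 libraries, the reverse of miR-455. Its 3p reads per 5p read were 4.14 ± 0.46 for naive rats, 3.97 ± 0.90 for bPYX+GFP rats and 4.12 ± 0.44 for bPYX+NT3 rats (SD, n = 6 per group). By a two-sided exact permutation test over 924 splits, the mean log2 ratio did not differ detectably in bPYX+GFP against naive rats (difference -0.08, p = 0.587, Benjamini-Hochberg adjusted p = 0.896 over 3 comparisons; lower in 4 of 6 libraries). The exact test gave p = 0.597 for bPYX+NT3 against bPYX+GFP rats (difference 0.08, adjusted p = 0.896) and p = 0.976 for bPYX+NT3 against naive rats (adjusted p = 0.976). As differences in medians, the values of these 3 comparisons were -0.14, 0.15 and 0.0167. The ratio in bPYX+GFP replicate 3 was 5.69, and in the other bPYX+GFP rats it was between 3.23 and 4.18. Among the 114 precursors with both arms tested, the median absolute difference was 0.20 in bPYX+GFP against naive rats and 0.14 in bPYX+NT3 against bPYX+GFP rats. Without bPYX+GFP replicate 3 the first difference of miR-140 was -0.19 (exact permutation, adjusted p = 0.234) and the second 0.18 (exact permutation, adjusted p = 0.208). Without bPYX+GFP replicate 5 they were -0.0242 and 0.0206, and leaving out single libraries gave -0.19 to -0.0242 for the first and 0.0206 to 0.18 for the second. The first was also nearer 0 without naive replicate 1 (-0.0365), naive replicate 4 (-0.0449) or bPYX+GFP replicate 6 (-0.0390), and the second without bPYX+GFP replicate 2 (0.05), bPYX+GFP replicate 6 (0.0355) or bPYX+NT3 replicate 3 (0.0237).

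Within groups, the arms of miR-455 had a Pearson r of 0.63 and a Spearman rho of 0.60 over the 18 libraries, after each group's mean of log2 CPM was subtracted. Pairs with miR-455-3p are described without a p-value, since its values chose the set. Pearson's r of the miR-455 arms was 0.48 among naive rats, 0.82 among bPYX+GFP rats and 0.70 among bPYX+NT3 rats. Without the 2 libraries farthest from the median of miR-455-5p it was 0.49, and without single libraries it was from 0.56 to 0.75.

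The arms of miR-140 had a Pearson r of 0.40 (n = 18; permutation within groups, p = 0.129, adjusted p = 0.194 over the 3 pairs without miR-455-3p) and a Spearman rho of 0.28 (permutation p = 0.291, adjusted p = 0.291). Pearson's r was 0.40 among naive rats, -0.32 among bPYX+GFP rats and 0.80 among bPYX+NT3 rats, so its sign differed between groups. It was -0.19 without the 2 libraries farthest from the median of miR-140-5p (permutation p = 0.526), -0.0028 without bPYX+NT3 replicate 2 and 0.65 without bPYX+GFP replicate 3.

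Between the precursors, miR-455-5p had an r of 0.47 with miR-140-5p (n = 18; permutation p = 0.0898, adjusted p = 0.194) and a rho of 0.53 (permutation p = 0.049, adjusted p = 0.147). By group this r was 0.15 in naive, 0.02 with GFP and 0.75 with NT3. With miR-140-3p its r was 0.29 (permutation p = 0.318, adjusted p = 0.318) and its rho 0.37 (permutation p = 0.161, adjusted p = 0.242), and by group r was 0.25, 0.16 and 0.41. Without the 2 farthest libraries these values of r were 0.52 and 0.41, and without bPYX+NT3 replicate 2 they were 0.29 and 0.08. As a description, miR-455-3p had an r of 0.54 and a rho of 0.50 with miR-140-5p, where r by group was 0.36, -0.44 and 0.83. With miR-140-3p it had an r of 0.18 and a rho of 0.10, where r by group was 0.09, -0.03 and 0.37. Without bPYX+NT3 replicate 2 these values of r were 0.39 and -0.06. All levels of a library share its scaling factor. With scaling by library size only, miR-455-5p had an r of 0.38 with miR-140-5p and 0.12 with miR-140-3p.

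**Figure D4:**
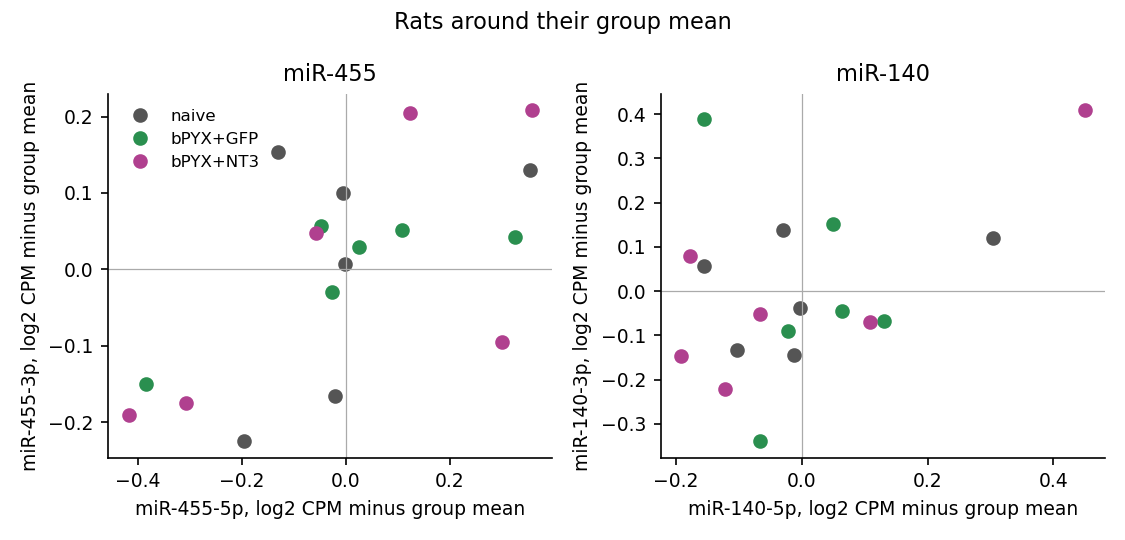
Log2 CPM of the 3p arm (vertical axes) against the 5p arm (horizontal axes) after subtraction of the group mean, for miR-455 and miR-140, with 1 point per rat coloured by group. Pearson's r was 0.63 for miR-455 and 0.40 for miR-140, with bPYX+NT3 replicate 2 at the upper right and bPYX+GFP replicate 3 at the upper left of the miR-140 panel.

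Across all 18 libraries without removal of group means, the levels most like those of miR-455-5p were those of miR-493-3p (r of 0.87), miR-30d-5p (0.86) and miR-30a-5p (0.86). The partner arm miR-455-3p came at place 86 of 372, with r of 0.38 and rho of 0.29. Without the 2 farthest libraries this r was -0.02. miR-455-3p was most like let-7d-3p (0.81), miR-29b-1-5p (0.75) and miR-191a-5p (0.72). miR-140-5p was most like miR-758-3p (0.72), miR-96-5p (0.71) and miR-425-5p (0.70), and miR-140-3p was most like miR-184 (0.62), miR-375-3p (0.59) and miR-483-5p (0.54). Without the 2 farthest libraries these last 3 values were 0.42, 0.57 and 0.49. miR-184, miR-375-3p, miR-483-5p and miR-29b-1-5p were scarce, at 12.7, 3.72, 10.8 and 9.18 CPM over all rats. No member was among the 3 miRNAs most like another member. These are the highest of 372 correlations each and are descriptions of 18 libraries.

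Other miRNAs linked to cartilage or SOX9 were read from a list of 22, of which 13 were tested. The 13 included miR-145-5p, a known repressor of Sox9 that also marks smooth muscle, with group means of 1446 ± 391 (naive), 1021 ± 139 (bPYX+GFP) and 1335 ± 368 CPM (bPYX+NT3). Its log2 fold change in bPYX+GFP against naive rats was -0.50 ± 0.14 (edgeR unadjusted p = 0.00279, adjusted p = 0.0742), with 6 of 6 libraries below the naive mean. Of the 13, 0 had an adjusted p under 0.05 in any of the 3 comparisons by edgeR's quasi-likelihood test. At an unadjusted p under 0.05, 4 of the 13 differed in bPYX+GFP against naive rats, where 21.2% of all tested miRNAs did. miR-101a-3p was higher (log2 fold change 0.21 ± 0.08), and miR-145-5p, miR-199a-5p (-0.21 ± 0.10) and miR-193b-3p (-0.33 ± 0.08) were lower. The median log2 fold change of the list was -0.08, against 0.00 for all tested miRNAs. The summed level of the list was 79347 ± 1190 CPM in naive rats (77469 to 81031), 73784 ± 3478 CPM in bPYX+GFP rats (69351 to 77916) and 74481 ± 4452 CPM in bPYX+NT3 rats (68908 to 80280). The groups overlapped, and the sum was not tested. miR-27b-3p and miR-30a-5p, at 41529 and 20492 CPM over all rats, made up most of it.

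In bPYX+NT3 against bPYX+GFP rats 1 of the 13 met the unadjusted criterion, miR-145-5p with a log2 fold change of 0.40 ± 0.16, where 8.58% of all tested miRNAs did. In bPYX+NT3 against naive rats 2 did: miR-337-3p was higher (0.62 ± 0.24) and miR-30a-5p lower (-0.24 ± 0.11). Of all tested miRNAs, 13.7% did. miR-337-3p was scarce, with means of 7.33 CPM in bPYX+NT3 and 4.77 CPM in naive rats and at most 57 counts in any library. The list medians were 0.03 and -0.05 in these comparisons, against 0.00 and -0.01 for all tested miRNAs. Of the 9 not tested, miR-675-3p and miR-675-5p, which come from the SOX9-responsive H19 transcript, had at most 3 and 5 counts in any library. miR-1247-3p and miR-1247-5p had at most 5 and 11 counts. The remaining 5, miR-29a-3p, miR-29b-3p, miR-29c-3p, miR-365-3p and miR-210-3p, were listed at 0 in every library. A listed 0 is not read as absence, since for 15 miRNAs at 0 the partner arm had at least 1000 counts.

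The ganglia were marked as sensory by miR-182, at 25160 CPM, and miR-96-5p, at 4282 CPM. miR-183-5p was listed at 0, although its partner miR-183-3p had 2829 counts over all libraries. The summed level of miR-182 and miR-96-5p was from 23640 to 31007 CPM in the naive group, from 28964 to 33099 CPM with GFP and from 25916 to 32954 CPM with NT3. miR-182 had a log2 fold change of 0.20 ± 0.08 in bPYX+GFP against naive rats (edgeR unadjusted p = 0.0223, adjusted p = 0.173). In bPYX+NT3 against naive rats it had 0.19 ± 0.09 (edgeR unadjusted p = 0.0407, adjusted p = 0.349). At an unadjusted p under 0.05, 10.7% and 7.24% of all tested miRNAs were higher in these comparisons. For miR-96-5p the values were 0.07 ± 0.08 (edgeR adjusted p = 0.71) and -0.04 ± 0.10 (edgeR adjusted p = 0.886). All 5 miRNAs of the fibroblast and perivascular list were tested, with summed levels from 43568 to 71272 CPM, from 45893 to 61168 CPM and from 42635 to 60807 CPM in the same order of groups. The means of this sum were 52828, 52496 and 52220 CPM, of which miR-143-3p gave most, at 49479 CPM over all rats. In bPYX+GFP against naive rats 2 of the 5, miR-145-5p and miR-199a-5p, were lower at an unadjusted p under 0.05. Of all tested miRNAs, 21.2% met that criterion, and 10.5% of all tested miRNAs met it and were lower. In bPYX+NT3 against bPYX+GFP rats 1 of the 5, miR-145-5p, was higher. There 8.58% of all tested miRNAs met the criterion, with 5.09% higher. miR-145-5p, miR-199a-5p and miR-199a-3p stand in both this list and the cartilage list.

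Of the glial list only miR-204-5p was tested, with group means of the list of 8935 ± 1637, 8781 ± 771 and 7636 ± 1880 CPM in naive, bPYX+GFP and bPYX+NT3 rats, and miR-338-3p and miR-219a-2-3p were listed at 0. The endothelial list, read from miR-126a-3p alone, had means of 25429 ± 2715, 24315 ± 2074 and 23593 ± 3433 CPM. Skeletal muscle miRNAs were at 136 ± 32.0, 177 ± 101 and 158 ± 80.2 CPM in sum, from miR-133b-3p and miR-206-3p, with miR-1-3p and miR-133a-3p listed at 0. The 6 blood and immune miRNAs summed to 1674 ± 656, 1946 ± 559 and 1749 ± 345 CPM. The part of any of these cell types in the miR-455 differences was not tested. In whole ganglia, fewer cells of a type and less RNA per cell cannot be told apart.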

How the data were processed

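Small RNA libraries from DRG of 18 rats, 6 per group by their labels, were prepared by the authors with a NEBNext kit, with no molecular identifiers stated. Per the labels and the methods of the study, base calls were converted with bcl2fastq 1.8.4, reads were trimmed and aligned with Bowtie2 to Rnor_5.0, and HTSeq-count gave the deposited raw counts per mature miRNA. Versions of the last tools are not given in the sources used here. Entries that name no miRNA held 65.1% of the reads, 31.4% for low alignment quality, and were left out. Counts of miRNAs with near-identical copies are therefore uncertain.

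Counts were fitted with edgeR 4.0.16 in R 4.3.3 (TMM scaling, quasi-likelihood F test) on the 12 libraries of each comparison. The detection filter asked for over 10 counts in 6 or more libraries, and p-values were adjusted over 373 miRNAs by Benjamini-Hochberg. SEs came from the F statistic. Log2 CPM used a prior count of 2, and correlations 100000 permutations within groups. No library was a copy of another in its group (smallest chi-square over degrees of freedom 39.6). The labels do not identify the rat left out by the study, so all libraries were kept. The fit was tested on simulated data. Alternatives were other scalings, filters and tests (DESeq2 1.42.0 among them), all groups together, a replicate block and leaving out each library. Named miRNAs were the members, the 3 most like each, their neighbours by abundance and members of the cartilage list with an unadjusted p under 0.05. Other miRNAs are named as markers of the cell type lists or, chosen after their values were seen, as the most abundant, undetected or zero entries of a list. Members and lists were chosen with earlier results of these data known.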

Additional observations from a re-analysis of the deposited data

Results flagged for a closer look

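For 16 measures in the 3 groups of 6 rats, 48 sets of values in all, 5 sets held 1 rat set well apart from the rest, where chance gives about 1 in 20. miR-455-5p was 632 CPM in naive replicate 3 and from 431 to 493 CPM in the other naive rats. miR-140-5p was 926 CPM in naive replicate 2 and from 673 to 748 CPM in the others. The summed level of both miR-140 arms was 5081 CPM in bPYX+NT3 replicate 2 and from 3308 to 3890 CPM in the others of its group. The blood and immune miRNAs summed to 2997 CPM in bPYX+GFP replicate 4 and from 1448 to 2015 CPM in the others. Total miRNA counts were 6.92 M in bPYX+GFP replicate 3 and from 4.37 to 4.66 M in the others.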

How the results depend on the processing

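Over the alternatives tried, no adjusted p of miR-455-5p, miR-140-5p or miR-140-3p fell under 0.05, and the direction of miR-455-5p held in each comparison. The adjusted p of miR-455-5p (edgeR or DESeq2) ranged from 0.086 to 0.336 in bPYX+GFP against naive rats, 0.508 to 0.974 in bPYX+NT3 against bPYX+GFP rats and 0.127 to 0.437 in bPYX+NT3 against naive rats. The miR-140 differences near 0 changed sign with the setting. For miR-140-5p in bPYX+GFP against naive rats they were 0.0094 with median of ratios size factors and with DESeq2, 0.0232 with library size only and 0.0019 with the replicate block. In bPYX+NT3 against bPYX+GFP rats they were -0.0030 without a detection filter and -0.0005 with the block, and in bPYX+NT3 against naive rats -0.0088 with the block. For miR-140-3p in bPYX+NT3 against naive rats they were 0.0139 with median of ratios and with DESeq2, 0.07 with library size only, 0.0130 without a filter and 0.0324 with a filter of more than 100 counts. Leaving out single libraries gave -0.0332 to 0.06, -0.11 to 0.05 and -0.09 to 0.07 for miR-140-5p in the 3 comparisons, and -0.15 to -0.0197, -0.0303 to 0.15 and -0.07 to 0.06 for miR-140-3p (in the first, -0.15 without bPYX+GFP replicate 3, -0.0197 when its replicate 5 was left out). As differences in medians, the miR-140 arm ratio gave -0.14 in bPYX+GFP against naive rats and 0.15 in bPYX+NT3 against bPYX+GFP rats. In bPYX+NT3 against naive rats it was 0.0167 by medians and from -0.06 to 0.0386 without single libraries. Adjustment of the correlations over the 3 pairs without miR-455-3p was chosen after seeing the data, and the planned one over all 6 pairs gave an adjusted permutation p from 0.18 to 0.381 for r of these pairs. The correlation of the miR-140 arms was -0.19 without the 2 farthest libraries. Without single libraries it was -0.0028 to 0.65 (lowest without bPYX+NT3 replicate 2), that of miR-455-3p with miR-140-3p was -0.06 to 0.26 and that of the miR-455 arms 0.56 to 0.75.

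The 9 miRNAs with an adjusted p under 0.05 in bPYX+GFP against naive rats became 23 with DESeq2 and 3 to 20 without single libraries (20 without naive replicate 2, 5, 4 and 3 when replicates 4, 5 and 1 of bPYX+GFP were left out, 4 and 3 when naive replicates 3 and 4 were). The 0 in bPYX+NT3 against naive rats became 1 with the likelihood ratio test, DESeq2 or all 3 groups together, and 0 to 4 without single libraries (1 when bPYX+NT3 replicate 1 was left out, 4 when its replicate 4 was). At an unadjusted p, the 32 in bPYX+NT3 against bPYX+GFP rats became 54 without a filter or without bPYX+NT3 replicate 4, and the 51 in bPYX+NT3 against naive rats became 32 without bPYX+NT3 replicate 3. Deviations of same-numbered libraries correlated from -0.38 to 0.37 (median 0.05), and those of other pairs from -0.41 to 0.52 (median -0.00). Same-numbered libraries were thus not clearly more alike, which cannot exclude that the numbers mark a pairing. With the replicate block the adjusted counts were 7, 0 and 0, and no call on a member changed.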

Other observations

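Of the 753 miRNAs listed, 181 were at 0 in every library, and for 15 of these the partner arm had at least 1000 counts over the 18 libraries. They include miR-126a-5p, whose partner had 2052261 counts, and miR-191a-3p, whose partner had 592122 counts. Both arms of miR-455 and of miR-140 had counts in every library.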
